A study of Mus musculus with 10 samples.

Results

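Liver transcripts for 42 complement, clotting and fibrinolysis proteins were measured by polyA RNA-seq in female mouse fetuses late in gestation (E18.5, in days after mating). The genes were taken from a fixed list of names and matched by Ensembl identifier in a table of 55401 genes, with 19 complement genes and 23 coagulation and fibrinolysis genes treated as separate sets. All 42 were found, and all 42 passed the filter on low counts that left 14098 genes for testing. The list was drawn up with other results of these data known, but no measured value decided which genes entered it.

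The 5 Mir483Pat-KO fetuses had inherited a deletion of Mir483 from the father, and the 5 WT fetuses were their littermates without it. Mir483 is a microRNA gene inside Igf2, in an imprinted domain where the paternal Igf2 copy is the active one. The deletion came from targeted embryonic stem cells in which the selection cassette had been removed by Cre, so it was present in every tissue and not only in the liver, while the maternal copy was intact. All mice were kept on a C57BL/6J background. Mir483 had 0.814 to 1.63 CPM (counts divided by the library total and multiplied by 1000000) in the 5 WT libraries and no count in any of the 5 Mir483Pat-KO libraries, where a floor of 3 counts allows 0.203 to 0.277 CPM. Library totals ranged from 10831350 to 14765880 counts. The identification numbers in the labels formed a lower range with 4 WT and 2 Mir483Pat-KO libraries and an upper range with 1 WT and 3 Mir483Pat-KO libraries, and what a range stands for is not given in the sources used here. Nothing in the labels says more about the origin of the replicates than that they are separate samples, so that p-values measure the spread between these samples.

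The complement system is a cascade of plasma proteins that tags and lyses microbes. The classical and lectin pathways cleave C4 and C2, the alternative pathway works through factor B, and all of them meet at C3 before the terminal proteins assemble the membrane attack complex. Coagulation is a parallel protease cascade in which prothrombin becomes thrombin and thrombin turns fibrinogen into fibrin, while anticoagulant serpins, the protein C system and plasmin limit and dissolve the clot. Hepatocytes make most of these plasma proteins. In whole-liver RNA, fewer hepatocytes and less RNA per hepatocyte cannot be told apart.

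In WT liver the 42 members spanned a wide range of levels. On a scale of CPM per kb of the principal annotated transcript, Fgg, the gamma chain of fibrinogen, and Fga, the alpha chain, stood highest at 4550.4 and 4451, with WT ranges of 4417 to 4774 and 4219 to 4789 that overlapped. Fgb, the beta chain, followed at 2845. C3 had 1829.8 CPM per kb and Kng1, the kininogen that carries bradykinin, had 1717, and their ranges also overlapped. Vtn (vitronectin), F2 (prothrombin) and Plg (plasminogen) lay between 872 and 965. At the low end were C6 at 2.60, Cfb (factor B) at 3.84, C9 at 4.13, C2 at 4.25 and C4bp (C4b-binding protein) at 4.48 CPM per kb, and the WT libraries of C9 alone spread from 1.91 to 6.72. Transcript levels of the membrane attack complex were uneven, with C8b at 194, Hc (component C5) at 82.4, C8g at 47.5 and C8a at 32.2 CPM per kb beside C6 and C9. Cfb and C2 share 79.5% and 42.8% of their exonic bases with the overlapping gene Gm20547 on the same strand, and Klkb1 (plasma prekallikrein) shares 43.2% with Gm45753. Both overlapping genes had no count in any library, and the counts of these 3 members are uncertain because the sources used here do not give how shared reads were assigned. If shared reads were left out, the levels per kb of these 3 members would be too low.

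**Figure D1:**
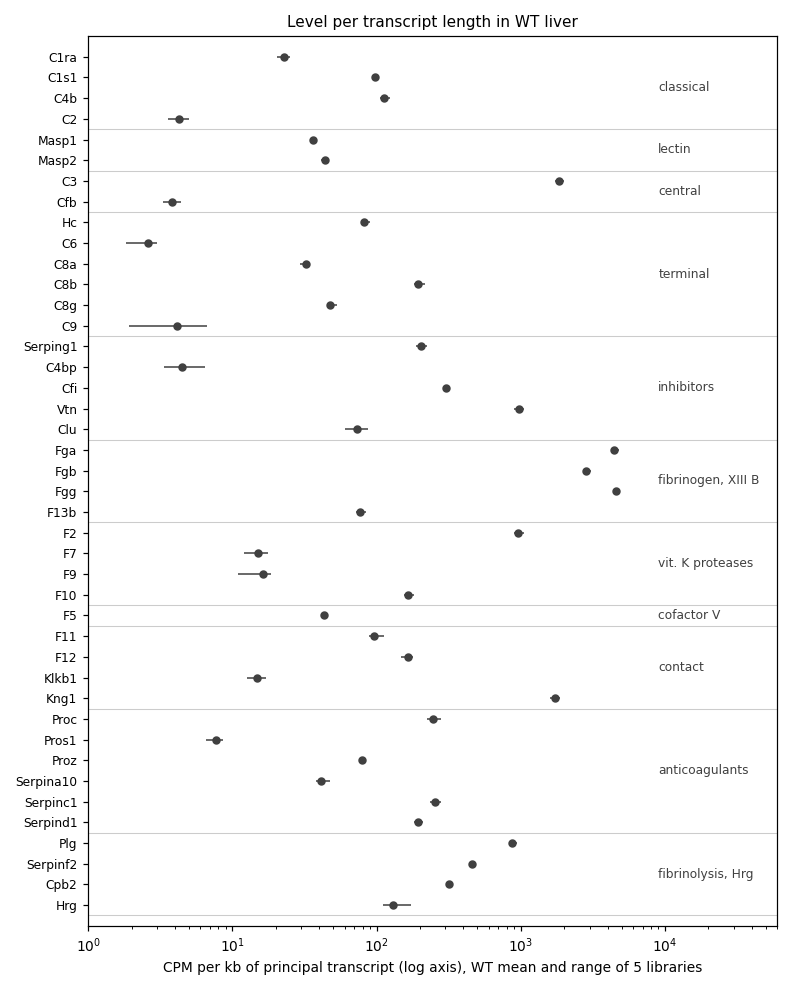
Level of each member in WT liver, in CPM per kb of principal transcript on a log axis. Dots are means and bars the range over 5 libraries. The 3 fibrinogen chains, C3 and Kng1 are highest, from 1717 to 4550.4, whereas C6, Cfb, C9, C2 and C4bp are lowest, from 2.60 to 4.48. The levels of Cfb, C2 and Klkb1 would be too low if reads shared with overlapping genes were left out.

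The 19 complement genes took 1.46% of all counts in WT and 1.27% in Mir483Pat-KO. Their summed level was 14479, 13941, 14096, 14716 and 15782 CPM in WT replicates 1 to 5, and 13777, 11964, 12461, 11866 and 13509 CPM in Mir483Pat-KO replicates 1 to 5. Every Mir483Pat-KO library lay below every WT library, and the mean fell by 12.9%. C3 alone made up 64.3% ± 0.383 of the WT sum and 61.7% ± 1.86 of the Mir483Pat-KO sum (± SD of 5 libraries each), and without it the mean fell by 6.66% and the groups overlapped, at 5021 to 5558 CPM in WT and 4587 to 5095 CPM in Mir483Pat-KO. The 23 coagulation genes took 4.33% of all counts in WT and 4.13% in Mir483Pat-KO. Their sum was 42319 to 45969.8 CPM in WT and 38887 to 43059.6 CPM in Mir483Pat-KO, so that the groups overlapped, and the mean fell by 4.76%. No test was run on these sums.

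Gene by gene, 36 of the 42 members (85.7%) had a log2 fold change below 0, compared with 49.1% of the 14098 genes tested. The median log2 fold change was −0.11 over the complement genes and −0.16 over the coagulation genes, against 0.0042 over all genes. Fold changes came from edgeR's quasi-likelihood F-test on counts scaled by TMM, with Benjamini-Hochberg adjustment of p-values over all 14098 genes. At an adjusted p under 0.05, 2 of 19 complement genes (10.5%) and 2 of 23 coagulation genes (8.70%) were lower in Mir483Pat-KO, where 2.76% of all genes were. None of the 42 was higher, where 2.43% of all genes were. At an unadjusted p under 0.05, 20 members (47.6%) were lower and 2 (4.76%) were higher, beside 10.7% and 11.5% of all genes. The DESeq2 Wald test found 4 complement and 9 coagulation genes lower and none higher at an adjusted p under 0.05, where 4.32% and 3.91% of all genes were called in those directions. When the study's further threshold of a fold change over 1.5 was applied, 1 member remained, Hrg, and 0.872% of all genes were called lower and 0.355% higher under that rule. The differences of the other 3 called members were smaller than that threshold.

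**Figure D2:**
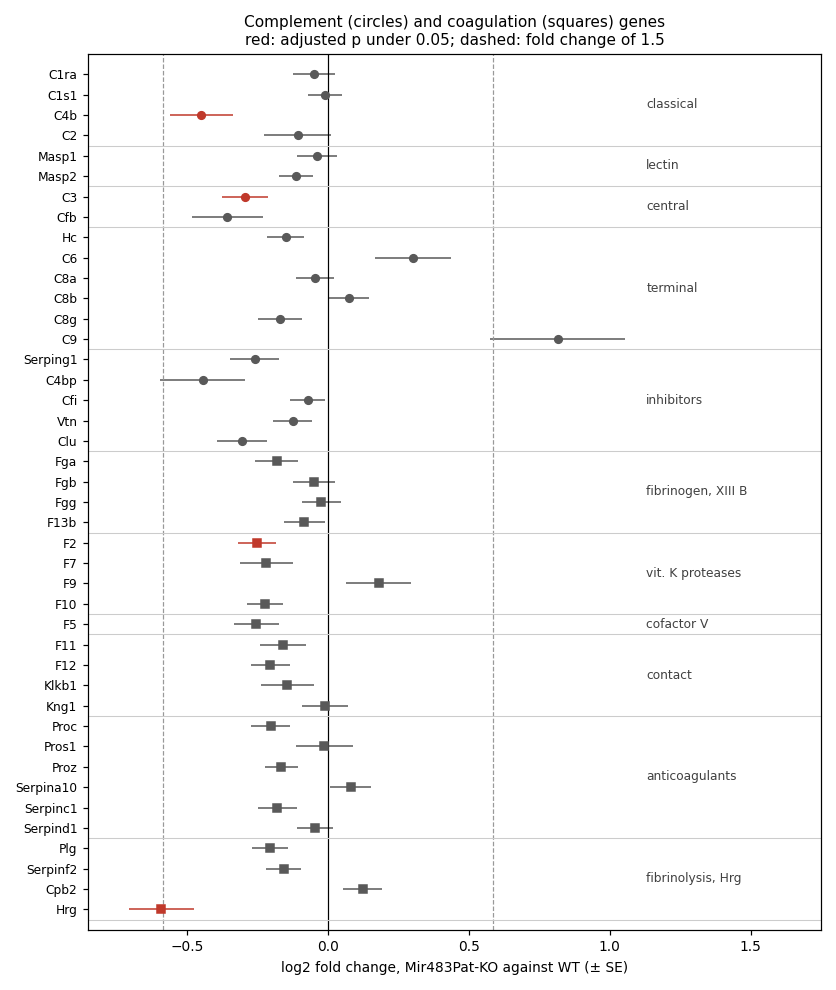
Log2 fold change of the 42 members in Mir483Pat-KO against WT, grouped by role, with bars of 1 SE from the edgeR fit. Circles are complement genes and squares coagulation genes. Red marks the 4 members with an adjusted p under 0.05 (C4b, C3, F2 and Hrg), and dashed lines mark a fold change of 1.5. Most members lie a little left of 0, and C9 stands apart on the right at 0.82.

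Among the classical pathway genes, C4b was lower, and the genes of the C1 proteases were close to their WT levels. C4b (ENSMUSG00000073418, GRCm38 chromosome 17, 34728380 to 34743882, minus strand) encodes component C4, which is cleaved by C1s and by the Masp2 protease. It had 584, 580.3, 564, 624 and 667 CPM in WT replicates 1 to 5 and 456, 362, 555, 364 and 528 CPM in Mir483Pat-KO replicates 1 to 5. The groups did not overlap, although Mir483Pat-KO replicate 3 lay just under the lowest WT library. The log2 fold change was −0.45 ± 0.11 (SE, edgeR adjusted p = 0.0302). This call was lost when Mir483Pat-KO replicate 2 or 4, or WT replicate 4 or 5, was left out, with adjusted p of 0.068, 0.0799, 0.0608 and 0.0727 and log2 fold changes from −0.45 to −0.39. C4a, its near-identical neighbor, had only 2.90 CPM in WT and 2.60 in Mir483Pat-KO, and reads that match both genes may have been split or dropped. C1ra and C1s1, which encode the proteases of the C1 complex, had log2 fold changes of −0.05 and −0.01, and C2 had −0.11.

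The lectin pathway proteases showed no detected difference. Masp1 had 185, 187, 204, 197 and 204 CPM in WT and 212, 183, 200, 176 and 202 CPM in Mir483Pat-KO. The Mir483Pat-KO values enclosed the WT values, for a log2 difference of −0.04 ± 0.07 (adjusted p = 0.789). Masp2, the protease that cleaves C4 and C2 in this pathway, had −0.11 ± 0.06 (adjusted p = 0.3). Of its exonic bases, 54.9% face Tardbp on the opposite strand, so that its counts depend on strand-specific counting. The same holds for 34.4% of the exonic bases of Serpinc1 (Zbtb37), 18.4% of C1s1 (Gm16567) and 11.3% of Plg (Slc22a3), and for at most 5.49% of those of every other member. The libraries were stranded, but whether reads were counted by strand is not stated.

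C3, the protein on which all pathways converge, was lower. The gene (ENSMUSG00000024164, chromosome 17, 57203970 to 57228136, minus strand) had 9294, 8892, 9075, 9505 and 10224 CPM in WT replicates 1 to 5. In Mir483Pat-KO replicates 1 to 5 it had 8890.3, 7377, 7485, 7119.5 and 8413 CPM. The highest Mir483Pat-KO library and the lowest WT library almost touched, and the log2 fold change was −0.29 ± 0.08, or −18.3% (edgeR adjusted p = 0.0473). C3 stood close to the threshold, and it passed in 1 of the 10 analyses that each left out 1 library, the one without Mir483Pat-KO replicate 1, with log2 fold changes from −0.36 to −0.26 throughout. Cfb, the protease subunit of the alternative pathway convertase, had 10.5 ± 1.40 CPM in WT and 8.41 ± 1.41 in Mir483Pat-KO (± SD of 5 libraries each), and its log2 difference of −0.36 ± 0.13 did not pass (adjusted p = 0.111).

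The terminal pathway genes had values on both sides of 0, and none passed the test. C9, which polymerizes into the membrane pore, had 13.8, 3.91, 9.43, 8.01 and 7.18 CPM in WT replicates 1 to 5 and 12.5, 14.0, 11.2, 22.99 and 15.6 CPM in Mir483Pat-KO replicates 1 to 5. Every Mir483Pat-KO library lay above 4 of the 5 WT libraries, and WT replicate 1 fell among them. The log2 fold change was 0.82 ± 0.24 (adjusted p = 0.0566), the largest in size among the 42. Without WT replicate 1 it was 1.04 (adjusted p = 0.0155), and without Mir483Pat-KO replicate 4 it was 0.63 (adjusted p = 0.165). C9 passed in 6 of the 22 alternative analyses, where its adjusted p reached 0.432 at most, in the lower identification number range, with 0.138 in the robust fit and 0.0991 by DESeq2. Hc, which had the highest WT mean of this group in CPM, though C8b overlapped it in WT and had the higher mean in Mir483Pat-KO, had 493, 433, 449, 446 and 422 CPM in WT and 424, 394, 404, 399.7 and 449.7 CPM in Mir483Pat-KO. Its groups overlapped, and the log2 fold change was −0.15 ± 0.07 (adjusted p = 0.195). C6 had 0.30 ± 0.14, C8b 0.08 ± 0.07, C8a −0.05 ± 0.07 and C8g −0.17 ± 0.08 on the log2 scale. The summed level of the 6 terminal genes was 1043 to 1095 CPM in WT and 1047 to 1089 CPM in Mir483Pat-KO.

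All 5 soluble complement inhibitors had values below 0, and none passed in the main edgeR analysis. Clu (clusterin), which blocks insertion of the terminal complex, had 120.4, 109, 144, 159 and 133 CPM in WT and 115, 122, 105, 103 and 108 CPM in Mir483Pat-KO. The groups overlapped, for a log2 difference of −0.30 ± 0.09 (adjusted p = 0.0583). Clu passed in 5 of the alternative analyses, among them those without WT replicate 1 or 2 (adjusted p = 0.0473 and 0.0211). Vtn, an inhibitor of the terminal complex and an adhesion protein, had 1736, 1611, 1566, 1663 and 1839.6 CPM in WT and 1531, 1479, 1568, 1635 and 1705 CPM in Mir483Pat-KO. The log2 fold change was −0.12 ± 0.07 (adjusted p = 0.306). Serping1, the C1 inhibitor that also restrains the contact system, had −0.26 ± 0.09 (adjusted p = 0.093), and C4bp had −0.44 ± 0.15 (adjusted p = 0.0939). Serping1 passed without Mir483Pat-KO replicate 3 (adjusted p = 0.0371) and C4bp without WT replicate 2 (adjusted p = 0.0418), and each passed in 3 of the 22 alternative analyses. Without WT replicate 1, the highest library of C4bp at 19.6 CPM, its log2 fold change was −0.29 (adjusted p = 0.163). Cfi (factor I), the protease that inactivates C3b and C4b, had −0.07 ± 0.06. The DESeq2 Wald test called Clu and Serping1 lower (adjusted p = 0.0245 and 0.0484), where 4.32% of all genes were lower.

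**Figure D3:**
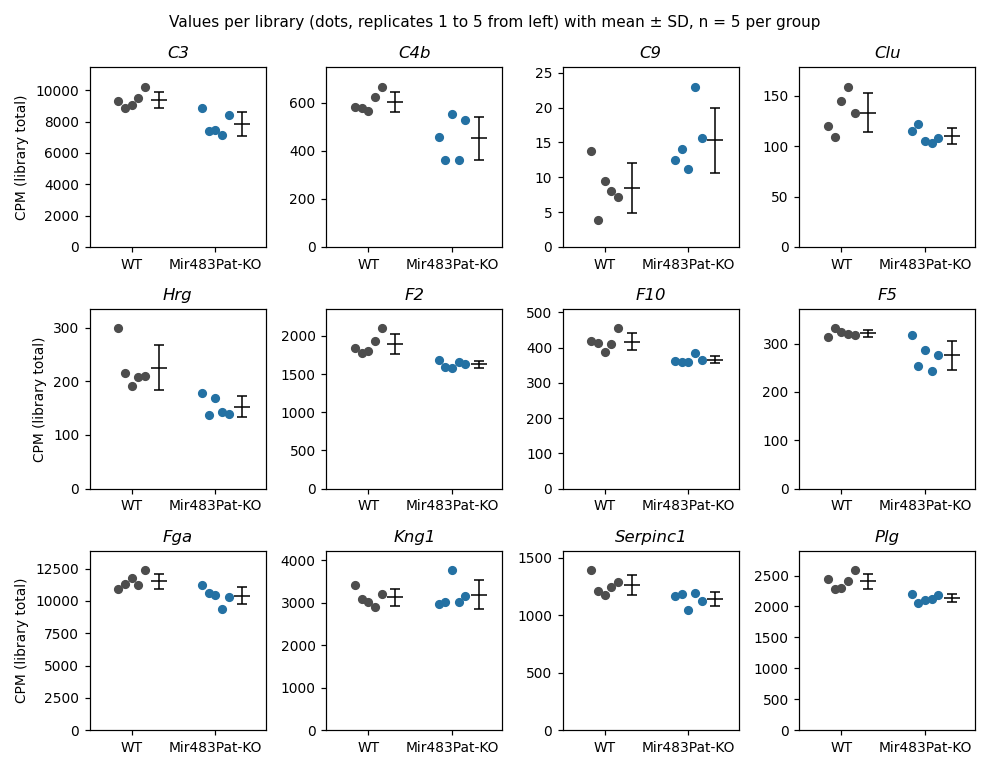
CPM per library of 12 members named by rule, 4 complement genes in the top row and 8 coagulation genes below. Dots are single libraries, and the bars beside them are the mean ± SD of 5. In C3, C4b, Hrg, F2, F10 and Plg the groups do not overlap.

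Turning to coagulation, the fibrinogen genes were the most abundant and did not pass the test. Fga had 10914, 11325, 11729, 11219 and 12389 CPM in WT and 11198, 10606, 10464, 9387 and 10328 CPM in Mir483Pat-KO. Mir483Pat-KO replicate 1 lay within the WT range and the other 4 lay below it, for a log2 difference of −0.18 ± 0.08 (adjusted p = 0.168). Fgb and Fgg had −0.05 ± 0.07 and −0.02 ± 0.07. F13b, the carrier subunit of the fibrin-crosslinking factor XIII, had −0.08 ± 0.07. Since the 3 chains assemble in equal numbers, their ratios within a library are of interest. A ratio does not depend on library scaling, but it is not corrected for the GC content and length of each gene. The Fga to Fgg ratio was 1.49 ± 0.0669 in WT, against 1.34 ± 0.0633 in Mir483Pat-KO (± SD of 5 libraries each, exact two-sided permutation p = 0.0159). Fga to Fgb was 1.06 ± 0.0399 and 0.970 ± 0.0517 (exact p = 0.0238), and Fgb to Fgg was 1.41 ± 0.0473 and 1.38 ± 0.0315 (exact p = 0.325). These were 3 of 7 ratios compared between neighboring members, chosen after the values were seen. With adjustment over the 7, the p-values of the Fga ratios were both 0.0556. With offsets for GC content and length, Fga, Fgb and Fgg had similar log2 fold changes of −0.15, −0.12 and −0.15. The ratios were not recomputed with these offsets.

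Of the vitamin K-dependent clotting proteases, F2 was lower, F10 fell just short of the threshold, and F9 had a value above 0. F2 (ENSMUSG00000027249, chromosome 2, 91625320 to 91636414, minus strand) encodes prothrombin. It had 1848, 1779, 1797, 1932 and 2100 CPM in WT replicates 1 to 5 and 1679.9, 1597, 1574, 1654 and 1636 CPM in Mir483Pat-KO replicates 1 to 5. The groups did not overlap, and the log2 fold change was −0.25 ± 0.07, or −16.0% (edgeR adjusted p = 0.0429). F2 passed in only 2 of the 10 analyses with 1 library left out, those without Mir483Pat-KO replicate 1 or WT replicate 2, with log2 fold changes from −0.28 to −0.21 over all 10. F10, the protease that activates prothrombin, had 419, 413, 388, 410.9 and 455 CPM in WT and 362, 358, 359.7, 384 and 365 CPM in Mir483Pat-KO. These groups were separated too, for a log2 difference of −0.22 ± 0.06 (adjusted p = 0.0511), and F10 passed under 7 alternative analyses. F7, which starts the cascade together with tissue factor, had −0.22 ± 0.09 and F9 had 0.18 ± 0.12. The F9 value was 0.07 without WT replicate 5, its lowest library at 29.9 CPM, and ranged from −0.00083 with GC content and length offsets to 0.35 when the identification number range was a covariate. F9 passed in that 1 of the 22 alternatives (adjusted p = 0.0233). The 4 genes summed to 2257 to 2613 CPM in WT and 2005 to 2120.3 CPM in Mir483Pat-KO, without overlap. Most of this sum was F2, with a mean of 1891 of 2381 CPM in WT and 1628 of 2070 CPM in Mir483Pat-KO.

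F5, the cofactor of factor Xa, had 314, 332, 323, 319.8 and 318 CPM in WT and 319, 253, 287, 244 and 276 CPM in Mir483Pat-KO. The WT libraries were tightly grouped, with 4 Mir483Pat-KO libraries beneath all of them. Its log2 difference of −0.25 ± 0.08 did not pass (adjusted p = 0.0711), but it did without Mir483Pat-KO replicate 1, which lay within the WT range (adjusted p = 0.015). F5 was also called lower by the DESeq2 Wald test (adjusted p = 0.0247), where 4.32% of all genes were lower.

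No contact system gene passed in the main edgeR analysis. Kng1 had 3432, 3098, 3022, 2912 and 3221 CPM in WT and 2968, 3033, 3777, 3033 and 3174 CPM in Mir483Pat-KO. Its log2 fold change was −0.01 ± 0.08 (adjusted p = 0.966), and the highest value was that of Mir483Pat-KO replicate 3. F12, which triggers this pathway, had −0.20 ± 0.07 (adjusted p = 0.0966), F11 had −0.16 ± 0.08 and Klkb1 had −0.14 ± 0.09. The DESeq2 Wald test called F12 lower (adjusted p = 0.0337), where 4.32% of all genes were lower. F12 also passed with the identification number range as a covariate (edgeR adjusted p = 0.0243), where 3.85% of all genes were lower.

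The 6 anticoagulant genes likewise gave no call in the main edgeR analysis. Serpinc1 (antithrombin), the main inhibitor of thrombin and factor Xa, had 1393, 1206, 1171, 1248 and 1292 CPM in WT and 1165, 1179.8, 1045, 1194 and 1126 CPM in Mir483Pat-KO. On library-total CPM the groups overlapped slightly, and after TMM scaling they did not, for a log2 difference of −0.18 ± 0.07 (adjusted p = 0.143). Proc (protein C) had −0.20 ± 0.07 (adjusted p = 0.0999) and Proz (protein Z), which helps to inhibit factor Xa, had −0.16 ± 0.06 (adjusted p = 0.113). The DESeq2 Wald test called Proc and Proz lower (adjusted p = 0.0359 and 0.0151), where 4.32% of all genes were lower. Proc also passed with the identification number range as a covariate (edgeR adjusted p = 0.0356), where 3.85% of all genes were lower. Serpina10, the partner of protein Z, had 0.08 ± 0.07, Serpind1 (heparin cofactor II) had −0.04 ± 0.06 and Pros1 (protein S) had −0.01 ± 0.10.

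Hrg gave the clearest call. The gene (ENSMUSG00000022877, chromosome 16, 22951072 to 22961656, plus strand) encodes histidine-rich glycoprotein, a plasma protein that binds heparin, plasminogen and fibrinogen. It had 298, 216, 191, 209 and 210.3 CPM in WT replicates 1 to 5 and 178, 137, 169, 142 and 138 CPM in Mir483Pat-KO replicates 1 to 5. The groups did not overlap, and WT replicate 1 lay far above the other WT libraries. The log2 fold change was −0.59 ± 0.12, or −33.6% (edgeR adjusted p = 0.0103), and it stayed between −0.67 and −0.48 with an adjusted p under 0.05 in all 10 analyses with 1 library left out. Its fold change no longer exceeded 1.5 when WT replicate 1 was left out, nor when replicate 2, 4 or 5 of Mir483Pat-KO was.

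The other genes of fibrinolysis did not pass in the main edgeR analysis. Plg, the precursor of plasmin, had 2437, 2276, 2306, 2418 and 2589.8 CPM in WT and 2209, 2063, 2107, 2124 and 2186 CPM in Mir483Pat-KO. The groups were separated, for a log2 difference of −0.20 ± 0.07 (adjusted p = 0.0783). Serpinf2 (alpha-2-antiplasmin) had −0.16 ± 0.06, and Cpb2, the carboxypeptidase that protects fibrin from plasmin, had 0.12 ± 0.07. The DESeq2 Wald test called Plg and Serpinf2 lower (adjusted p = 0.00387 and 0.0154), where 4.32% of all genes were lower.

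Counted on TMM-scaled log2 CPM, the groups of 10 members (23.8%) did not overlap and all 10 were lower in Mir483Pat-KO, where 3.26% of all genes were separated in that direction and 3.34% in the other. They were C4b and C3 of complement and F2, F10, Proc, Proz, Serpinc1, Plg, Serpinf2 and Hrg of coagulation. On library-total CPM there were 7, without Proc, Serpinc1 and Serpinf2, where 2.28% of all genes were separated as lower.

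**Figure D4:**
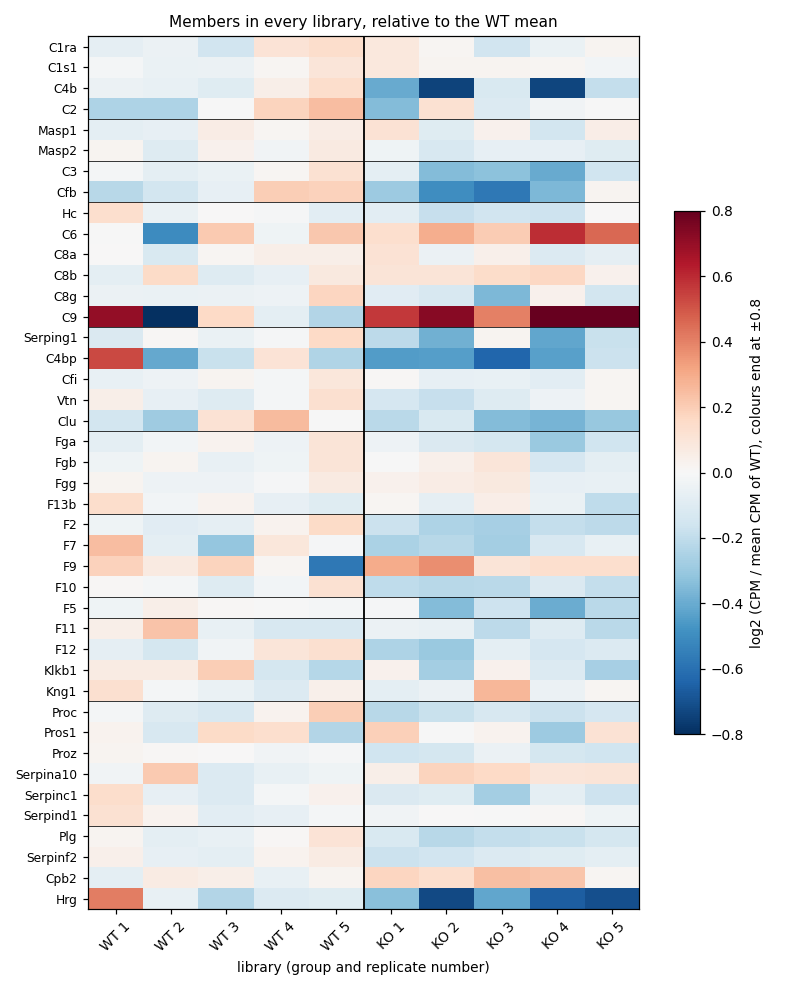
CPM of each member in each library as log2 of its ratio to the WT mean, with WT replicates 1 to 5 left and Mir483Pat-KO replicates (KO) 1 to 5 right of the line. Blue is lower and red is higher, and colors end at ±0.8. C4b, C3, Clu, F2, F10, Plg and Hrg are blue in all 5 Mir483Pat-KO libraries, and C9 is red in all of them.

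Some markers of hepatocytes and of erythroid cells, the most abundant blood-forming cells of the fetal liver, also passed the test. The summed levels of both lists overlapped between the groups, and no test was run on these sums. The summed level of 10 hepatocyte markers, none at 0 in any library, was 235409 to 253787 CPM in WT and 217330 to 242549 CPM in Mir483Pat-KO. Of these 10, 8 had values below 0 with a median log2 fold change of −0.17, and 2 passed as lower, Rbp4 and Fabp1, beside 2.76% of all genes. At an unadjusted p under 0.05, 5 of the 10 were lower, beside 10.7% of all genes. The 11 erythroid markers summed to 16004 to 21379.5 CPM in WT and 18994 to 27830.0 CPM in Mir483Pat-KO, 10 had values above 0, and none was at 0. Of the 11, 3 (27.3%) passed as higher, beside 2.43% of all genes, and 9 (81.8%) were higher at an unadjusted p under 0.05, beside 11.5%. The share of counts from 4 hemoglobin genes was 1.33% ± 0.168 in WT, against 1.88% ± 0.342 in Mir483Pat-KO (± SD of 5 libraries each, exact two-sided permutation p = 0.0159). In the lower identification number range it was 1.19% to 1.61% in WT and 1.42% to 1.63% in Mir483Pat-KO.

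When libraries were scaled to the 10 hepatocyte markers instead of by TMM, an analysis added after the data were seen, the median of all genes moved from 0.0042 to 0.17 and that of the 42 members from −0.15 to 0.02. On that scale 18 of the 42 (42.9%) had values below 0, where 20.5% of all genes did. Hrg was lower (−0.43, adjusted p = 0.0141), where 1.31% of all genes were lower. C9 (0.98), C6 (0.47), C8b (0.24), Cpb2 (0.29) and Serpina10 (0.25) were higher, with edgeR adjusted p of 0.0107, 0.0297, 0.0339, 0.016 and 0.0416, where 18.8% of all genes were higher. C4b, C3 and F2 had −0.28, −0.13 and −0.09 and did not pass. Of the 4 members called by TMM, only Hrg was also called on this scale, and 2 of the markers that set it had themselves passed as lower by TMM. In the lower identification number range alone, with 4 WT and 2 Mir483Pat-KO libraries, no member passed, and 23 of 14494 genes did. C4b, C3, F2 and Hrg had log2 fold changes of −0.54, −0.19, −0.18 and −0.55 there. With offsets for the GC content and length of each gene, Hrg passed (−0.60, adjusted p = 0.00495), whereas C4b (−0.35), C3 (−0.22) and F2 (−0.19) did not, with adjusted p of 0.0539, 0.0976 and 0.0996. C4bp (−0.61), F5 (−0.28) and F13b (−0.22) were lower in that analysis, with edgeR adjusted p of 0.0355, 0.0282 and 0.0484, where 2.54% of all genes were lower. C3 and F2 were also not called with library totals alone (adjusted p of 0.056 and 0.0649), C3 with the identification number range as a covariate (0.0512) and F2 without the low-count filter (0.0665).

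**Figure D5:**
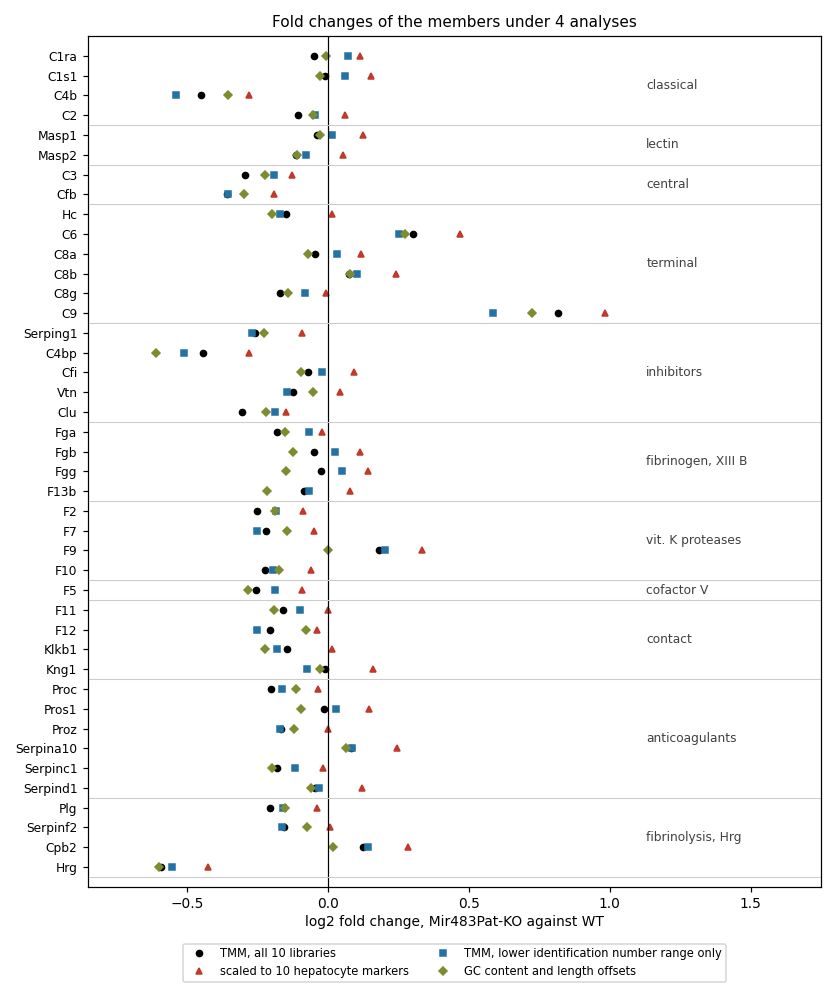
Log2 fold change of each member under 4 analyses. Black circles show TMM scaling of all 10 libraries, red triangles scaling to 10 hepatocyte markers, blue squares TMM in the lower identification number range, and green diamonds TMM with offsets for GC content and length. Hrg, C4b, C4bp, C3, Cfb, Clu, Serping1 and C8g stay left of 0 in all 4. So do F2, F7, F10, F5, F12, Fga, Plg, Proc, Proz and Serpinc1. C9, C6, C8b, Serpina10 and Cpb2 stay right of 0 in all 4, whereas others such as C1ra, C1s1, Masp1, Fgb, Fgg and Pros1 change side.

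Other genes of the pathways were examined as lists. Of 36 other complement genes, 29 were matched and passed the filter, 1 was lower and none higher, and the median was −0.12. The called share was 3.45%, near the 2.76% of all genes. At an unadjusted p under 0.05, 10 were lower (34.5%) and 2 higher (6.90%), beside 10.7% and 11.5% of all genes. The gene that passed was C1qa, which encodes a chain of the C1q recognition protein made by macrophages. It had 89.4, 84.0, 86.2, 91.8 and 102 CPM in WT and 70.1, 71.2, 86.7, 72.7 and 80.0 CPM in Mir483Pat-KO, for a log2 difference of −0.29 ± 0.08 (edgeR adjusted p = 0.0389). Mir483Pat-KO replicate 3 reached the WT range. C1qa failed to pass when any of 6 libraries was left out, namely Mir483Pat-KO replicates 1, 2, 4 and 5 and WT replicates 4 and 5. C1qb and C1qc, the other chains, had −0.20 ± 0.08 and −0.31 ± 0.10 and did not pass (adjusted p = 0.17 and 0.0711). The 10 macrophage markers, which include C1qa, summed to 623 to 788 CPM in WT and 606 to 778 CPM in Mir483Pat-KO, 5 had values below 0 and 2 passed as lower (Clec4f and C1qa, beside 2.76% of all genes), with none at 0. Their part in the C1q values was not tested. C7 and Cfd, singled out after their values were seen, had 3 counts and 1 count over all 10 libraries. The terminal component C7 and factor D of the alternative pathway were therefore near the detection limit in this tissue, whereas C6, C8a, C8b, C8g and C9 were measured.

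Among 29 other coagulation and fibrinolysis genes, 1 was lower (3.45%, near the 2.76% of all genes) and none higher, with a median of −0.04. At an unadjusted p under 0.05, 5 were lower (17.2%) and 1 higher (3.45%), beside 10.7% and 11.5% of all genes. Vwf, the platelet-binding glycoprotein of endothelial cells and megakaryocytes, had 66.4, 58.3, 57.2, 64.7 and 63.9 CPM in WT and 57.4, 45.9, 46.0, 38.6 and 48.8 CPM in Mir483Pat-KO. Mir483Pat-KO replicate 1 just reached the WT range, and the log2 fold change was −0.42 ± 0.09 (edgeR adjusted p = 0.018). It passed in all 10 analyses with 1 library left out, but not with GC content and length offsets (−0.31, adjusted p = 0.0559), with scaling to hepatocyte markers (−0.26, adjusted p = 0.0555) or in the lower identification number range (−0.27, adjusted p = 0.309). The 8 endothelial markers summed to 464 to 529 CPM in WT and 433 to 505 CPM in Mir483Pat-KO, with 7 values below 0. The 7 megakaryocyte markers summed to 156 to 332 and 186 to 249 CPM, with 5 of the 6 tested below 0 and Gp1bb at 0 in some libraries. None of either list passed, 1 endothelial and 0 megakaryocyte markers had an unadjusted p under 0.05, and their part in the Vwf value was not tested. Of the 5 vitamin K cycle genes none passed, and 1 had an unadjusted p under 0.05. Ggcx, the carboxylase that modifies prothrombin and factors VII, IX and X, had −0.10 ± 0.08 (adjusted p = 0.506), and Vkorc1, the reductase that recycles vitamin K, had −0.42 ± 0.17 at only 6.87 CPM in WT (adjusted p = 0.162).

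Many members lie beside each other in the genome, and 17 of the 42 fell into 7 groups with gaps of at most 300 kb. Hrg and Kng1 lie within 131 kb on chromosome 16, and the ratio of Hrg to Kng1 was 0.0714 ± 0.00934 in WT, against 0.0480 ± 0.00684 in Mir483Pat-KO (± SD of 5 libraries each, exact two-sided permutation p = 0.00794, which no arrangement of 5 and 5 can undercut, and 0.0556 with adjustment over the 7 ratios). C4b, Cfb and C2 lie within 169.9 kb on chromosome 17, with log2 fold changes of −0.45, −0.36 and −0.11. F7, F10 and Proz, within 49.99 kb on chromosome 8, had −0.22, −0.22 and −0.16. The fibrinogen genes Fgg, Fga and Fgb lie within 42.1 kb on chromosome 3 and had log2 fold changes of −0.02, −0.18 and −0.05. With 5 against 5 libraries, 1 ratio alone at the smallest exact p cannot go below 0.0556 after adjustment over 7, whatever its size.

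Promoter sequences of 31 of the 42 members were matched in the RefSeq table (GRCm38.p6), each running from 250 bases before to 50 bases after a start site. GTTAAT, the core word of the liver factor HNF1, occurred on either strand in the promoters of 11 members and in 33.3% of their 33 windows, against 7.10% of all 32851 promoters. A word of 6 bases is short, and a match does not show binding. The C/EBP core TTGCNNAA, for the family of factors active in the acute-phase response, occurred in 12 members, 36.4% of windows against 10.8% of all. The STAT word TTCNNNGAA was found in 8 members, 24.2% against 8.30%, and the interferon response word GAAANNGAAA in 1, 3.03% against 3.44%. The HNF1 palindrome, made of that word, 1 free base and its reverse complement, and the HNF4 word CAAAGTCCA matched no member and 0.00913% and 0.475% of all promoters. C4b had no entry. The windows below, 30 bases on the gene's strand with the C/EBP or HNF1 word in capitals, are from members with an adjusted p under 0.05, from C9, and from Fga and Fgb, whose ratio is given above.
Hrg, C/EBP word: gatatagcataTTGCACAAatgatgatttt
C3, C/EBP word: aggaaactatgTTGCGAAAttttgggcagt
F2, HNF1 word: catcggttcaatATTAACccagagagagtc
C9, C/EBP word: tttttggtttaTTGCATAAtgacactttgt
Fga, C/EBP word: gctacagagaaTTGAGCAAgagtttctggg
Fgb, C/EBP word: ctgggaagatgTTGCTCAAatgataaagca
Fga, HNF1 word: ccaagggtgatgATTAACctcctgccggtt
Fgb, HNF1 word: aaaatgtcaaatATTAACtaaagggaggta
The Hrg window lies at chr16:22950928-22950957 on the plus strand, that of C3 at chr17:57228163-57228192 on the minus strand, that of F2 at chr2:91636432-91636461 on the minus strand and that of C9 at chr15:6445203-6445232 on the plus strand. For Fga, on the plus strand, the C/EBP window is chr3:83026007-83026036 and the HNF1 window chr3:83026098-83026127. The HNF1 word of Fga lies 43 bases before its RefSeq start but inside the GENCODE gene, which starts at 83026076. For Fgb, on the minus strand, they are chr3:83049925-83049954 and chr3:83049875-83049904. The words of Hrg, C9 and C3 start 133, 132 and 45 bases before the RefSeq start site of their window. That of F2 begins 8 bases after the RefSeq start, which lies upstream of the GENCODE gene given above, and so 35 bases before the start of that gene. The C/EBP word thus stood before Hrg and C3, which were lower, and before C9, whose value was above 0.

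Both mature microRNAs of the deleted gene were compared with the 3′ UTRs, since a site complementary to the seed (bases 2 to 8) is the usual way a microRNA recognizes an mRNA. The mature sequences (RefSeq, GRCm38.p6), with the seed in capitals, are as follows.
mmu-miR-483-3p: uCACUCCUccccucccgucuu
mmu-miR-483-5p: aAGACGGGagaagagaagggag
The first lies at chr7:142654932-142654952 and the second at chr7:142654968-142654989, both on the minus strand. Each gene's longest annotated 3′ UTR was searched. The 7-base site for miR-483-3p occurred in 4 of 42 members (9.52%), C9, Clu, Masp1 and Proz, against 13.9% of 12888 tested genes. That for miR-483-5p occurred in 2 members (4.76%), F7 and Klkb1, against 3.68%. The members' 3′ UTRs were short, with a median of 480 bases against 1358. The sites of C9 and Clu lie in exons that are coding in the principal transcript, and only a shorter annotated transcript makes them 3′ UTR. The other 4 sites, with 30 bases on the gene's strand and the site in capitals, read as follows.
Masp1, miR-483-3p: tgtcaccgtacAGGAGTGgagtggccttgt
Proz, miR-483-3p: cagcggattccAGGAGTGcggcagcctctc
F7, miR-483-5p: caggccttgctCCCGTCTccccgtagctgc
Klkb1, miR-483-5p: gcacaaagtagCCCGTCTtccactcgaagc
They lie at chr16:23450052-23450081 and chr8:13075216-13075245 for Masp1 (minus strand) and Proz (plus strand), and at chr8:13035598-13035627 and chr8:45267188-45267217 for F7 (plus strand) and Klkb1 (minus strand). None of these 4 genes passed in the main edgeR analysis, and their log2 fold changes were −0.04, −0.16, −0.22 and −0.14. The DESeq2 Wald test called Proz lower (adjusted p = 0.0151), where 4.32% of all genes were lower. The 4 members called by TMM, Hrg, C4b, C3 and F2, had no such site for either microRNA.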

How the data were processed

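RNA from the livers of 5 Mir483Pat-KO and 5 WT female fetuses was made into stranded TruSeq polyA libraries. The authors aligned reads to GRCm38 with STAR and deposited raw read counts for each Ensembl gene, not normalized. The strand setting of the counting and the rule for reads that map to several genes are not given in the sources used here. Groups, ID ranges and replicate numbers were taken from the labels, and positions, transcripts and 3′ UTRs from GENCODE mouse M21.

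Counts were analyzed in R 4.3.3 with edgeR 4.0.16 (filterByExpr defaults, TMM, quasi-likelihood F-test, no covariates), with Benjamini-Hochberg adjustment over 14098 genes. The common biological coefficient of variation was 0.111. CPM is per library total, and log2 CPM for the overlap of groups used TMM and a prior count of 2. Limits from low counts cover counting error only. Alternatives included DESeq2 1.42.0, limma-voom (limma 3.58.1) and each library left out in turn. The members, lists and tests were chosen with earlier results of these data known. Values per library were given for the 4 members of each set with the smallest p, since fewer than 4 passed, and for the most abundant member of each role group. Of other pathway genes, those with an adjusted p under 0.05 and C1qa, C1qb, C1qc, Ggcx and Vkorc1 were named. C4a was added as a near-identical copy of C4b, and C7 and Cfd after their values were seen. Further marker lists were hepatocyte, erythroid, macrophage, neutrophil, megakaryocyte, endothelial, stellate and biliary. On data simulated for this comparison over 14098 genes, edgeR recovered 91.5% of 200 genes changed by a fold of 2, and 6.63% of the genes called were unchanged. The members all differed by less than a fold of 2, and recovery of such smaller changes was not simulated. Single values were compared by two-sided exact permutation. Figures were drawn with Python 3.11.15 and matplotlib 3.10.9.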

Additional observations from a re-analysis of the deposited data

Results flagged for a closer look

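In 84 groups of 5 libraries, 2 for each of the 42 members, 7 had a highest or lowest library whose gap to its nearest neighbor exceeded 0.71 of the range of the group (Dixon's test at 95%), and chance gives about 1 in 20. WT replicate 1 was highest for Hrg at 298 CPM, where the other WT libraries had 191 to 216. WT replicate 5 was lowest for F9 at 29.9 CPM, where the others had 44.9 to 50.5, and highest for C8g at 61.6 CPM, where the others had 52.6 to 53.1. WT replicate 2 was highest for Serpina10 at 166 CPM, beside 133 to 141. Mir483Pat-KO replicate 3 was highest for Kng1 at 3777 CPM, beside 2968 to 3174, and for Proz at 257 CPM, beside 238 to 241. Mir483Pat-KO replicate 4 was highest for F10 at 384 CPM, beside 358 to 365.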

How the results depend on the processing

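The calls were few, those of C4b, C3 and F2 lay close to the threshold, and depth was not varied. Under all 22 alternative fits Hrg, C4b, C3 and F2 kept log2 fold changes below 0, and C9 and C6 kept theirs above 0. At an adjusted p under 0.05, the main analysis called 2 complement and 2 coagulation genes lower and 2 other pathway genes lower, where 2.76% of all genes were lower and 2.43% higher. The cause of the differences that follow was not tested.

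With each library left out in turn, where 1.35% to 3.34% of all genes were lower and 0.611% to 2.74% higher, complement genes lower ranged from 0 to 3 and higher from 0 to 1, coagulation genes lower from 1 to 3, other pathway genes lower from 1 to 4 and higher from 0 to 1, and members with a fold change over 1.5 from 0 to 1 in each set. Log2 fold changes that changed sign ranged from −0.043 to 0.020 for C1s1, from −0.088 to 0.018 for Kng1 and from −0.077 to 0.049 for Pros1.

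DESeq2 called 4 complement, 9 coagulation and 7 other pathway genes lower (4.32% of all genes). With the GC content and length offsets, C4b, C3 and F2 were not called, while 1 complement gene (C4bp, fold change over 1.5), 3 coagulation genes (Hrg, F5 and F13b) and 1 other pathway gene were lower (2.54% of all genes), and F9 had −0.00083. With the identification number range as a covariate, 5 coagulation genes were lower and 1 higher, 0 exceeded a fold change of 1.5, 6 other pathway genes were lower (3.85% of all genes lower, 4.58% higher), and Pros1 had 0.072. With library totals only (2.19% of all genes lower, 3.85% higher), 1 complement gene was lower and 1 higher, 1 coagulation gene and 1 other pathway gene were lower, and 1 complement and 0 coagulation genes exceeded a fold change of 1.5. C1s1, Fgg, Kng1 and Pros1 then had 0.025, 0.012, 0.027 and 0.021. With limma-voom (2.84% lower, 2.5% higher) 1 complement gene was higher, 4 coagulation genes were lower, and 1 complement and 0 coagulation genes exceeded a fold change of 1.5. Without the low-count filter (28428 genes, 2.2% lower and 2.23% higher), 4 complement genes were lower and 1 higher, the latter with a fold change over 1.5, 1 coagulation gene was lower, and 5 other pathway genes were lower and 1 higher.

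In the lower identification number range, where 0.138% of all genes were lower, 0 complement, 0 coagulation and 0 other pathway genes were lower and 0 coagulation genes exceeded a fold change of 1.5. C1ra, C1s1, Masp1, C8a, Fgb, Fgg, Pros1 and Ggcx then had 0.072, 0.062, 0.014, 0.034, 0.027, 0.051, 0.029 and 0.024. With 4 against 2 libraries, the groups of 8 complement and 9 coagulation genes were separated as lower and of 1 and 3 as higher there, where 12.1% of all genes were separated as lower and 12.6% as higher, and the hemoglobin share differed by 0.166 percentage points. On library-total CPM the groups of 5 coagulation genes were separated as lower (2.28% of all genes). The summed complement level fell by 6.66% without C3.

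With scaling to the 10 hepatocyte markers, 0 complement genes were lower and 3 higher, 1 coagulation gene was lower and 2 higher, 1 complement and 0 coagulation genes exceeded a fold change of 1.5, and 0 other pathway genes were lower and 9 higher (1.31% of all genes lower, 18.8% higher). The complement and coagulation medians were 0.052 and 0.0018. C1ra, C1s1, C2, Masp1, Masp2, Hc, C8a, Cfi and Vtn had 0.11, 0.15, 0.060, 0.12, 0.052, 0.015, 0.12, 0.093 and 0.044. Fgb, Fgg, F13b, F11, Klkb1, Kng1, Pros1, Serpind1, Serpinf2 and Ggcx had 0.12, 0.14, 0.079, 0.0018, 0.016, 0.16, 0.15, 0.12, 0.0094 and 0.062.

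Replicate numbers were shared by both groups, but same-numbered libraries deviated together in only 2 of 5 pairs (correlation over 0.1 across genes, mean 0.0871) and were not treated as pairs. With the replicate block, where 4.23% of all genes were lower and 5.26% higher, 2 complement genes were lower and 1 higher, 3 coagulation genes were lower, 1 complement and 0 coagulation genes exceeded a fold change of 1.5, and 6 other pathway genes were lower and 1 higher. Of 5 Mir483Pat-KO libraries, 3 correlated best with the WT library of their own number.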

Other observations

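Markers of the remaining cell types in fetal liver were also summed. The 8 stellate and mesenchymal markers all had log2 fold changes below 0, with a median of −0.44 and none past the threshold (edgeR adjusted p under 0.05), while 5 of them (62.5%) were lower at an unadjusted p under 0.05, beside 10.7% of all genes. Their sums were 590 to 1126 CPM in WT and 568 to 880 CPM in Mir483Pat-KO. Of 9 neutrophil and granule markers, 4 were below 0 and none passed, and of 5 biliary markers, 4 were below 0 and none passed, with medians of 0.01 and −0.19. At an unadjusted p under 0.05, 1 neutrophil marker was higher and no marker of either list was lower.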
